A study of Mus musculus with 2 samples.

Results

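The genes described here encode the proteins that store calcium in the sarcoplasmic reticulum of heart muscle, release it at each beat and remove it again. They are the 10 rows Ryr2, Casq2, Trdn, Jph2, Hrc, Atp2a2, Pln, Sln, Camk2d and Slc8a1, chosen by symbol, of 24346 gene symbols in the deposited files, and all 10 were found in both. RNA sequencing was done on 2 libraries of mouse heart tissue carrying the model label HFD-MI, in which HFD is the usual abbreviation of high-fat diet and MI is taken from the series title as myocardial infarction. The treated library came from tissue of an animal or animals given probucol, a lipid-lowering antioxidant, and the second from untreated tissue. Both have the age label day 14, without the event from which days were counted. The model is shared by both libraries, so the data hold no heart without it. Genotype, strain, sex, dose, the number of animals per library and the region of the heart are not given in the labels. The headers of the value columns carry the marks HypoE and CM, which the labels do not explain and which were not interpreted. The design text concerns tissue factors that affect CD4+ T cells in this model, and the comparison made here is how transcripts of calcium handling differed between treated and untreated tissue.

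In a heart muscle cell, calcium entering through surface channels opens the ryanodine receptor, and the store empties into the cytosol to start contraction. Relaxation follows when the pump SERCA2a returns calcium to the store and the sodium-calcium exchanger carries the rest out of the cell. Phospholamban and sarcolipin are small membrane proteins that restrain the pump. In mouse heart, sarcolipin is mainly a transcript of the atria.

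The deposited unit is FPKM, a fragment count divided by transcript length and by a measure of library size, so levels of different genes can be compared per length. Each group has 1 library, so no difference has a replicate check, and no test, SD or p-value between treatments can be given. Differences are log2((probucol FPKM + 0.5)/(untreated FPKM + 0.5)), given for the 12882 genes with a mean of at least 0.5 FPKM, called measured below. Of the 10 members, 9 were measured, and Sln was under this limit. Low values lie on steps that show what a single fragment was worth: per 1 kb of effective length, 1 FPKM stood for 6.70 fragments with probucol and for 7.48 fragments without. Estimated fragment totals were nearly equal, about 7220000 with probucol and 7250000 without. These totals are approximate and cover 19758 genes, and the totals of all mapped fragments are not known. The fragments per FPKM differed more between the libraries than these estimated totals did. How the deposited FPKM were scaled is not known, and the scaling enters every ratio. Intervals in brackets are exact 95% binomial (Clopper-Pearson) intervals of the FPKM ratio. They were computed from fragment numbers estimated with the shortest RefSeq transcript of the gene, which gives the widest interval, and they cover counting error only.

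The promoters of 3 members are shown because these members mark the span of what follows: Hrc had the largest difference, Pln was the most abundant, and Casq2 was the member of its promoter set that held a site for MEF2, a muscle transcription factor. Each sequence is the 250 bases before the transcription start on the strand of the gene (RefSeq, GRCm38.p6), written 5′ to 3′ with matches to the searched motifs in capitals.
Hrc, chr7:45335019-45335268, plus strand: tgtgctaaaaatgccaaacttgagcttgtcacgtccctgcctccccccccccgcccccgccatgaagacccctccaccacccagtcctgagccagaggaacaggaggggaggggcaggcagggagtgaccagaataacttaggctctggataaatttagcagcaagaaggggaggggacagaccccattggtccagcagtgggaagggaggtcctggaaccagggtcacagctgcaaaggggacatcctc
Pln, chr10:53337436-53337685, plus strand: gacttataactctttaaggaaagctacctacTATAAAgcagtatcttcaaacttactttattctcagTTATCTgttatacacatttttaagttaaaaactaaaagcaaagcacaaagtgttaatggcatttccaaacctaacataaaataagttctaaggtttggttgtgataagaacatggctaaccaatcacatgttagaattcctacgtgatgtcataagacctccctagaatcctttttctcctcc
Casq2, chr3:102086165-102086414, plus strand: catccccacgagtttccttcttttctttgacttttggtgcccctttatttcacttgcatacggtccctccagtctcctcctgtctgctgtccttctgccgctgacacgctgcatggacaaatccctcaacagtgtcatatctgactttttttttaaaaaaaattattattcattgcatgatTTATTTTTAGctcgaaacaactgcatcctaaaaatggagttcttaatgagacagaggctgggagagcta
Promoters were found for 7 members, and Atp2a2, Sln and Trdn had none in the table used. Motifs were searched on both strands. The TATA motif was spelled TATAAA. The GATA motif was spelled AGATAA. The M-CAT motif was spelled CATTCC. The MEF2 site and the CArG box were searched by their consensus. No pair of capital stretches in these promoters overlaps. The MEF2 site of Casq2 lies 69 to 60 bases before the start, and a site of this form was present in 2.92% of 32851 promoters. Pln held the TATA motif 219 to 214 bases and the GATA motif 183 to 178 bases before the start, which occur in 12.4% and 9.99% of promoters. The GATA motif was also present upstream of Slc8a1. Neither the M-CAT motif (12.6% of promoters) nor the CArG box (1.47%) was found in these windows of the 7 members. These matches describe letters in the windows and nothing measured at these sites.

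In FPKM as deposited, all 9 measured members were higher in the probucol library, by 0.02 to 0.75 on the log2 scale with a median of 0.34, while with equal FPKM totals 7 of the 9 were, Trdn and Camk2d lying below 0. In estimated fragments, Trdn had about 559 with probucol and 616 without, and Camk2d about 611 with probucol and 618 without. Hrc was the 1 member at least 1.5-fold higher, and 0 were at least 1.5-fold lower or past 2-fold either way. Among all 12882 measured genes, 5.52% were at least 1.5-fold higher and 12% at least 1.5-fold lower, and their median was 0.01. At the 2-fold limit these shares were 1.07% higher and 5.14% lower. The members are abundant, and among the 2965 genes with a mean of at least 25 FPKM, a level set once the data were known, 64.6% lay above 0, 6.71% were at least 1.5-fold higher and the median was 0.12. The order of levels was the same in both libraries, from Pln through Atp2a2, Casq2, Hrc, Jph2, Ryr2, Trdn, Camk2d and Slc8a1 down to Sln. Casq2 and Hrc, neighbours in that order, had almost the same level in the probucol library.

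**Figure D1:**
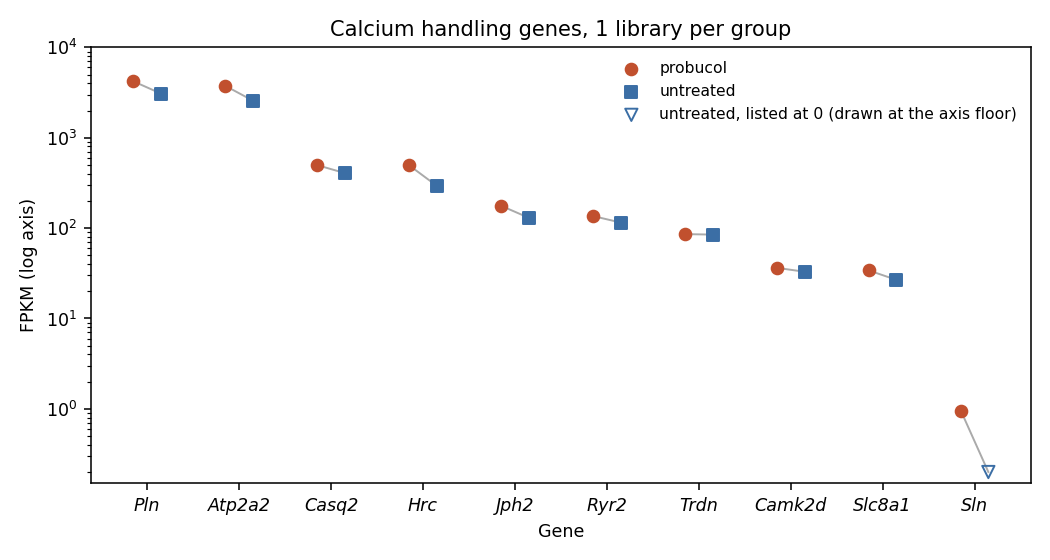
FPKM of each member (log axis) in the probucol library (circles) and the untreated library (squares), 1 library per group and therefore without error bars, ordered by mean level. Pln and Atp2a2 stand highest in both libraries, and Sln has 0.958 FPKM with probucol and is listed at 0 without (open triangle at the axis floor).

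Among the proteins of the store and its release, the largest difference was in a calcium-binding protein of the lumen. Hrc, the histidine-rich calcium-binding protein (chromosome 7, 45335290 to 45338974, GRCm38/mm10, plus strand), had 494.6 FPKM with probucol and 293 without. This gives a log2 ratio of 0.75 or 1.69-fold (interval of the FPKM ratio 1.63 to 1.75). These values correspond to about 7292 fragments with probucol and 4827 without, so counting error is small beside the difference. Of all measured genes, 97.4% had a lower log2 ratio than Hrc. Casq2, cardiac calsequestrin, the main calcium buffer of the lumen (chromosome 3, 102086415 to 102146514, plus strand), had 497 FPKM with probucol and 406 without. Its log2 ratio was 0.29 (1.18 to 1.26). The level of Hrc relative to Casq2, which does not depend on how the libraries are scaled, was 0.995 with probucol, against 0.722 in the untreated library.

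The release channel and its anchors differed less, and unequally. Ryr2, the cardiac ryanodine receptor (chromosome 13, 11553102 to 12106945, minus strand), had 136 FPKM with probucol and 115 without. That is a log2 ratio of 0.24 (1.15 to 1.21). Its transcript of 16814 bases gave about 15112 fragments with probucol and 14315 without. Trdn, triadin, which ties the receptor to calsequestrin (chromosome 10, 33080554 to 33476709, plus strand), had 85.8 FPKM with probucol and 84.8 without. Its log2 ratio of 0.02 was the smallest of the members, and its interval of 0.902 to 1.14 includes no difference. Jph2, junctophilin 2, which holds the store membrane next to the surface membrane (chromosome 2, 163336242 to 163397993, minus strand), had 176 FPKM with probucol and 130.2 without. This gives a log2 ratio of 0.44 (1.30 to 1.42). Relative to Ryr2, Trdn had 0.632 with probucol, against 0.735 in the untreated library, and Jph2 had 1.30 with probucol, against 1.13. Triadin is made in several forms, and FPKM per gene does not show which of them were present.

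The pump and its main inhibitor were the most abundant members and were higher by similar amounts. Atp2a2, whose main product in heart muscle is the pump SERCA2a (chromosome 5, 122453513 to 122502225, minus strand), had 3746 FPKM with probucol and 2570 without. Its log2 ratio was 0.54 (1.44 to 1.47). By FPKM its rank among all symbols was 22 with probucol, against 30 in the untreated library. Pln, phospholamban (chromosome 10, 53337667 to 53345987, plus strand), had 4204 FPKM with probucol and 3076 without. That is a log2 ratio of 0.45 (1.34 to 1.40). The ratio of Pln to Atp2a2 transcripts was 1.12 with probucol, against 1.20 in the untreated library, a difference of -0.09 on the log2 scale. Pln has 2 RefSeq transcripts, of 771 and 2334 bases. Its FPKM and this ratio therefore depend on how fragments were divided between them. An exon of Pln overlaps Cep85l on the opposite strand, which had 5.47 FPKM with probucol and 4.64 without, and no source used here says whether the counting used strand.

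Sln, sarcolipin, which restrains the pump in the atria and in skeletal muscle (chromosome 9, 53850164 to 53854560, plus strand), had 0.958 FPKM with probucol and was listed at 0 without. The value with probucol rests on about 7 fragments. A count of 0 in the untreated library allows up to 3 fragments or 0.362 FPKM, and no fold is given against a listed 0. Per length, Sln was far below Pln in both libraries. Of the other 12 atrial markers, Myl7 and Bmp10, both defining for atrial muscle, were listed at 0 in both libraries, and Myl4 had 7.53 FPKM with probucol and 5.75 without. Of the 12, 9 were measured, 6 of them above 0, and their summed level was 1641 FPKM with probucol and 4062 without. Nearly all of that sum is Nppa, the atrial natriuretic peptide, which stressed ventricle also makes, with 1565 FPKM with probucol and 4005 without. Kcnj3 (0.65) and Kcnj5 (0.48), subunits of a potassium channel, were the next of this list to be named. The ventricular light chains Myl2 (22203 FPKM with probucol and 14735 without) and Myl3 (11521 with probucol and 7841 without) were among the most abundant transcripts. Of the other ventricular markers, Irx4 had 0.35 and Hey2 -0.03 as log2 ratios.

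The kinase and the surface exchanger were the lowest members after Sln. Camk2d, the main cardiac form of the calcium/calmodulin-dependent kinase that phosphorylates phospholamban and the release channel (chromosome 3, 126596302 to 126846326, plus strand), had 36.3 FPKM with probucol and 32.9 without. Its log2 ratio was 0.14, and its interval of 0.986 to 1.24 includes no difference. With its longest transcript the interval is 1.02 to 1.19. Slc8a1, the sodium-calcium exchanger (chromosome 17, 81373105 to 81738377, minus strand), had 34.0 FPKM with probucol and 26.8 without. This gives a log2 ratio of 0.34 (1.14 to 1.42). Its transcripts range from 3180 to 18464 bases, so its FPKM depends on how fragments were divided among them. Relative to Atp2a2, Slc8a1 had 0.00907 with probucol, against 0.0104 in the untreated library.

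**Figure D2:**
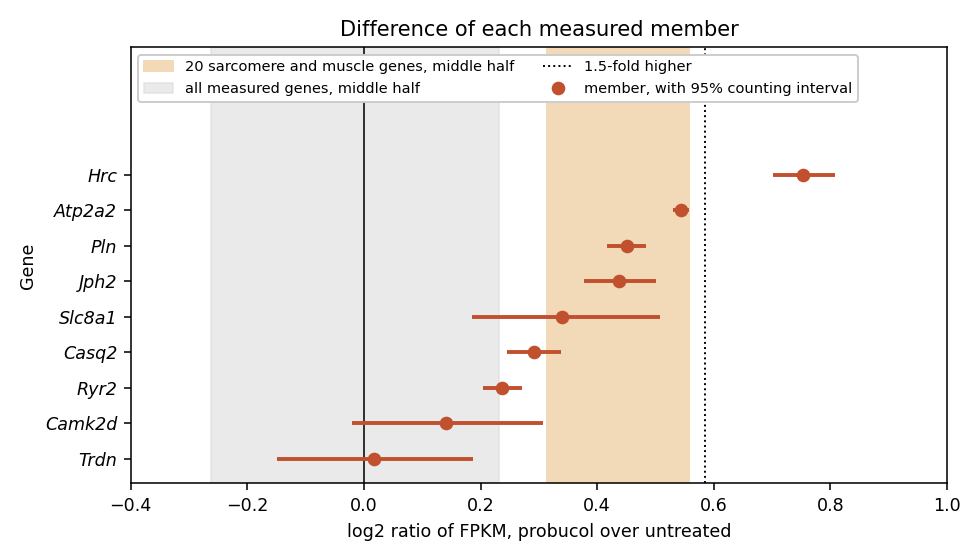
Log2 ratio of FPKM, probucol over untreated, for the 9 measured members (points) with the 95% interval from counting error (bars), beside the middle 50% of all measured genes (grey) and of 20 cardiomyocyte structural genes (tan). Hrc lies beyond the dotted line of 1.5-fold, and the intervals of Camk2d and Trdn include 0. All points would shift left together by 0.15 with equal FPKM totals, which puts Trdn and Camk2d below 0.

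Other genes of heart muscle were higher in the probucol library as well, and transcripts of macrophages and fibroblasts were lower. All 20 cardiomyocyte structural genes lay above 0, with a median of 0.47 and a summed level of 121852 FPKM with probucol and 90592 without. The most abundant were Mb (myoglobin, 0.48) and Myl2 (0.59), and the range ran from Tcap (0.16) to Myom2 (0.82), which encodes an M-band protein. Each of the 12 macrophage markers was past 1.5-fold in the lower direction, with a summed level of 1107 FPKM with probucol and 3656 without. Lyz2 (-1.88) and C1qb (-1.52) were the most abundant, and the list ran from Cd68 (-2.35) to Csf1r (-0.72). Of 10 fibroblast markers, 7 were at least 1.5-fold lower, from Col3a1 (-1.41) to Gsn (0.39), with Dcn, the other abundant one, at -0.52. Their summed level was 1460 FPKM with probucol and 2078 without. Endothelial markers (8 measured, median 0.01, from Vwf at -0.69 to Tie1 at 0.40, with Fabp4 at -0.32 and Pecam1 at -0.24) and smooth muscle and pericyte markers (8 measured, median -0.02, from Rgs5 at -0.41 to Myh11 at 0.46, with Acta2 at -0.20) lay near 0. Endothelial markers summed to 2107 FPKM with probucol and 2555 without, and smooth muscle and pericyte markers to 306 FPKM with probucol and 374 without. In bulk tissue, more muscle cells and more of these transcripts per muscle cell cannot be told apart, and the part of tissue makeup in the members' values was not tested.

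Set against the structural genes, the members lay on both sides of the structural median. When the libraries were scaled so that the median of the 20 structural genes was 0, which moves every log2 ratio down by about 0.47, the members' median was -0.13. Under this scaling 7 of 9 members lay below 0, from -0.45 for Trdn to -0.02 for Pln, while Atp2a2 had 0.07 and Hrc 0.28. Relative to Myh6, the adult cardiac myosin heavy chain, Atp2a2 had 0.840 with probucol, against 0.853 in the untreated library. The same ratio for Hrc was 0.111 with probucol and 0.0973 without, and for Trdn 0.0192 with probucol and 0.0281 without. Genes of cardiac stress were mixed: Ankrd1 had -1.73 and Nppa -1.36, Nppb had -0.42, and Myh7 (0.50) and Acta1 (1.35), myosin and actin forms of the fetal program, were higher, for a median of -0.42. Their summed level was 4007 FPKM with probucol and 7572 without.

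**Figure D3:**
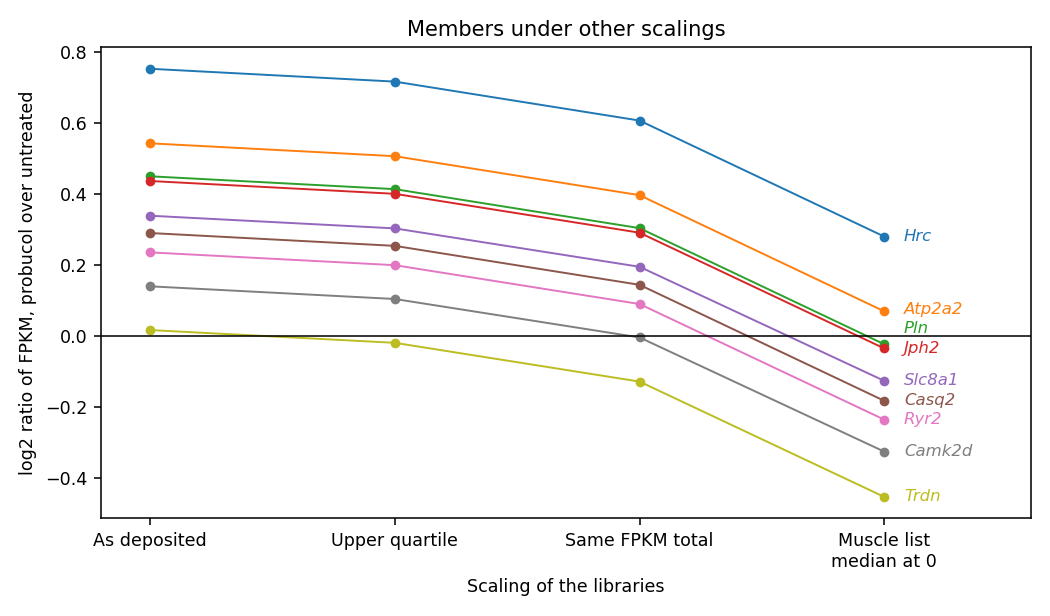
Log2 ratio of FPKM, probucol over untreated, for each measured member as deposited and under 3 other scalings of the libraries. The order of the members stays, and their position against 0 depends on the scaling: 9 lie above 0 as deposited, 8 with equal upper quartiles, 7 with equal FPKM totals and 2 with the median of the muscle list at 0.

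Partners of the release channel did not share a direction. Of 21 listed, 17 were measured, 7 lay above 0, 1 was at least 1.5-fold higher and 1 at least 1.5-fold lower, and the median was -0.02. Tmem38a, a potassium channel of the store membrane that carries counter-current during release, had 334 FPKM with probucol and 200.5 without. Its log2 ratio of 0.73 is close to the 0.75 of Hrc. S100a1, a calcium sensor that binds the pump and the release channel, was the most abundant of the list with 1898 FPKM with probucol and 1390 without (0.45). Asph, whose gene encodes junctin, had 0.39, and Jph1 had 0.52. Both were chosen after their values were seen. Fkbp1b, which encodes calstabin 2, a protein bound to the cardiac release channel, had 0.968 FPKM with probucol and 2.95 without. That is a log2 ratio of -1.23. That difference rests on about 5 fragments with probucol and 17 without, with a ratio between 0.0947 and 0.927. The skeletal channel Ryr1 had 0.0296 FPKM with probucol, from about 3 fragments, and was listed at 0 without. Casq1, the skeletal calsequestrin, had 6.46 FPKM with probucol and 8.12 without, and its interval of 0.582 to 1.10 includes no difference.

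Partners of the pump were mostly above 0, with a median of 0.27. Of 19 listed, 17 symbols were found and 16 measured, 13 lay above 0, 2 were at least 1.5-fold higher and 1 at least 1.5-fold lower. The most abundant were Srl (306 FPKM with probucol and 247 without, 0.31), which encodes the luminal protein sarcalumenin, and Calr (-0.05), which encodes calreticulin. Atp2a3, the SERCA3 pump of blood and endothelial cells, had 5.52 FPKM with probucol and 2.69 without (0.92, from about 159 fragments with probucol and 87 without). Ppp1r1a, an inhibitor of protein phosphatase 1, had 1.65 FPKM with probucol and 0.616 without (0.95), and its interval of 0.879 to 9.71 includes no difference. Mrln, the micropeptide myoregulin of skeletal muscle, had -0.96 from about 1 fragment with probucol and 3 without, too few to read a difference. The skeletal pump Atp2a1, not measured, had 0.231 FPKM with probucol and 0.124 without, from about 5 fragments with probucol and 3 without. Of 15 skeletal muscle markers, 5 were measured and 5 were listed at 0 in both libraries, and they summed to 81.4 FPKM with probucol and 79.5 without. Most of this is Myl1 (0.22), followed by Mybpc2 (-0.83), and the highest ratio was that of Tnni2 (0.87), from about 18 fragments with probucol and 10 without. The interval of Tnni2, 0.880 to 4.87, includes no difference.

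Calcium transport at the surface membrane had a median of 0.01, with 10 of 17 measured genes above 0. The most abundant, Fxyd1, which encodes the membrane protein phospholemman, had 714 FPKM with probucol and 623 without (0.20). Cacna1c, the pore of the cardiac L-type calcium channel, chosen after its value was seen, had 22.0 FPKM with probucol and 14.9 without (0.55). The 3 genes at least 1.5-fold lower were Bin1 (-1.04), a membrane-bending protein of the transverse tubules, Orai2 (-0.89), a store-operated channel, and Cacna1d (-0.81), an L-type channel of atria and pacemaker cells. Bin1 had 4.68 FPKM with probucol and 10.1 without, from about 59 fragments with probucol and 143 without, and is made by many cell types. Cacna1d rests on about 10 fragments with probucol and 37 without, with a ratio between 0.134 and 0.619.

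Mitochondrial calcium genes had a median of 0.29, with 8 of 12 above 0. The outer membrane channels Vdac1 (790.2 FPKM with probucol and 549 without, 0.53) and Vdac3 (0.25) were the most abundant, and 0 were at least 1.5-fold higher. Mcub, listed under its older symbol Ccdc109b, encodes a subunit that damps the calcium uniporter and had 4.44 FPKM with probucol and 7.96 without (-0.78). Slc8b1, the mitochondrial sodium-calcium exchanger, had 5.46 FPKM with probucol and 8.59 without (-0.61). The uniporter pore Mcu, chosen after its value was seen, had 9.48 FPKM with probucol and 6.58 without (0.49).

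**Figure D4:**
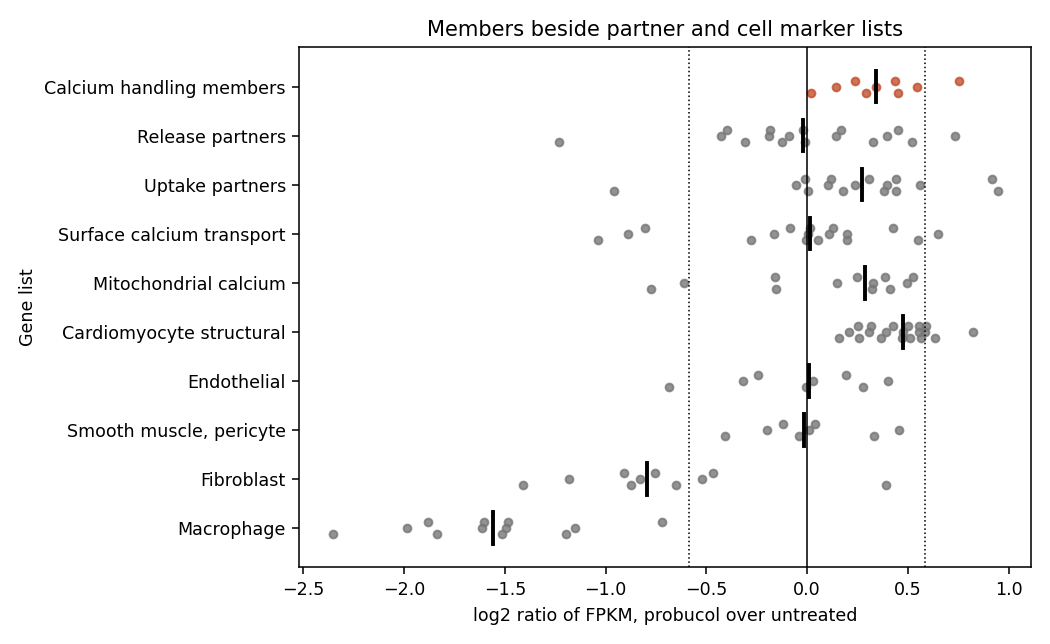
Log2 ratio of FPKM, probucol over untreated, for each measured gene (points) of the calcium handling members, 4 partner lists and 5 cell marker lists, with the median of each list (black bar) and 1.5-fold limits (dotted). The members' median is 0.34, beside 0.47 for cardiomyocyte structural genes and -1.56 for macrophage markers; equal FPKM totals would shift all points left by 0.15, and the members Trdn and Camk2d below 0.

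With 2 libraries, likeness between genes is 1 difference per gene. Among 854 other genes with a mean of at least 100 FPKM, 90 lay within 0.05 of the members' median log2 ratio. The nearest were Ndufs6 (0.34), a subunit of respiratory complex I, Nexn (0.34), an actin-binding protein of muscle, and Ghitm (0.34), a mitochondrial inner membrane protein. Nearest to Hrc, the member furthest from the median, were Acss1 (0.75) and Acadm (0.75), enzymes of mitochondrial acetate and fatty acid use, and Hbb-b2 (0.75), a haemoglobin chain.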

How the data were processed

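The authors deposited 1 file of FPKM per library, 2 in all, with 24346 gene symbols each. Build mm10 and the tools Cuffdiff 2.2.1, TopHat2 2.1.1 and Bowtie2 come from the submitters' processing notes, without roles. No source used here gives the annotation or the method of scaling between libraries. Per the labels' protocols, total RNA was made into stranded mRNA libraries. FPKM depends on what else was sequenced, so a larger share for abundant transcripts lowers the rest.

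From the deposited FPKM, log2 ratios were computed with a pseudocount of 0.5, a mean of at least 0.5 FPKM and no rescaling (Python 3.11.15, pandas 2.3.3, numpy 2.4.6, scipy 1.17.1). Such ratios understate differences of low genes. Fragments per FPKM were recovered from the steps of low values over genes with 1 transcript, with 210 bases subtracted from the GENCODE M21 length, and turned into fragment estimates per gene, about 7220000 with probucol and 7250000 without over 19758 genes. Fragment numbers are therefore estimates. Amplified fragments are not independent molecules. The calculation was checked on simulated data. Gene positions are those of GENCODE M21 (GRCm38).

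Groups follow the treatment label. All members are named. Of each partner list, genes at least 1.5-fold higher or lower (up to 4 each way) and the 2 most abundant are named. Of each cell marker list, the 2 most abundant and the extremes are named. Likeness was taken among genes of at least 100 FPKM. A few genes taken by this rule are not reported here. Other genes were chosen after their values were seen. Members and lists were chosen with earlier results of these data known. The alternatives tried were 2 pseudocounts, 2 filters, 4 scalings, a 2-fold limit and leaving out Sln.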

Additional observations from a re-analysis of the deposited data

How the results depend on the processing

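The members' median log2 ratio (0.34) lay between 0.20 and 0.39 under both pseudocounts, both filters, 3 scalings (median of all genes, upper quartile, same FPKM total) and without Sln. These shifts were smaller than the counting error of Slc8a1, the member at the median, with its shortest transcript, which is not an error of the median. With equal FPKM totals, 6 of 9 members moved by at least their own counting error. The other members, Trdn, Camk2d and Slc8a1, moved by less than theirs. Trdn and Camk2d were the 2 that changed sign, so these sign changes lie within counting error. The members' median was -0.13 with the median of the cardiomyocyte structural genes at 0. The count of members at least 1.5-fold higher (1) was 2 without a filter, where Sln entered against a listed 0, and 0 with the structural median at 0 or a 2-fold limit. At 2-fold, 1.07% of measured genes were higher and 5.14% lower. The count of members lower was 0 under all of these. The log2 difference in the ratio of Pln to Atp2a2 was -0.0928 with and without 0.5 added to each FPKM. Both genes lie so far above 0.5 FPKM that this setting could not move it.

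With the structural median at 0, which shifts all log2 ratios by 0.47, the sign turned for Ryr2 (-0.23), Pln (-0.0223), Casq2 (-0.18), Slc8a1 (-0.13), Trdn (-0.45), Camk2d (-0.32) and Jph2 (-0.0340). With equal FPKM totals, a shift of 0.15, it turned for Trdn (-0.13) and Camk2d (-0.00305), and with equal upper quartiles, a shift of 0.04, for Trdn (-0.0182). These turns follow from the shifts themselves. No paired analysis was possible because each group has 1 library. Nor could leaving out a replicate be tried. Depth limits genes that rest on few fragments, among them Sln, Fkbp1b, Mrln, Ppp1r1a, Tnni2 and Cacna1d.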

Other observations

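Genes of calcineurin, the calcium-activated phosphatase whose targets include the NFAT transcription factors, were looked at in a list chosen after the data were seen. All 12 were measured, 6 of them above 0 and 0 past 1.5-fold in either direction, with a median of -0.0045 on the log2 scale. The catalytic subunit Ppp3ca had 17.2 FPKM with probucol and 16.7 without, and Ppp3cc had 19.0 with probucol and 13.0 without. The calcineurin regulator Rcan1 had 77.6 FPKM with probucol and 110.3 without (log2 ratio -0.50). FPKM per gene does not separate its 2 RefSeq transcripts, and calcineurin activity was not tested. Rcan2, a relative of Rcan1, had 202 FPKM with probucol and 165 without (0.29).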
